A study of Mus musculus with 4 samples.

Results

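Neurons that release serotonin, noradrenaline or acetylcholine are each recognised by a small set of genes that make, package or recover their transmitter. The values of 9 such genes were examined in RNA bound to tagged ribosomes of midbrain dopamine neurons and in RNA of the whole midbrain. The genes were Tph2, Slc6a4 and Fev for serotonin, Dbh, Slc6a2 and Phox2a for noradrenaline, and Chat, Slc18a3 and Slc5a7 for acetylcholine, and all probe sets annotated with 1 of these symbols alone were taken. Of the 9 genes, 8 had such a probe set, with 13 probe sets in all, among 18193 genes and 45037 probe sets. Fev, the ETS family transcription factor of serotonin neurons, had none and was not analysed here.

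The arrays held 2 TRAP samples (translating ribosome affinity purification, replicates 2 and 4) and 2 input samples (replicates 1 and 2). All 4 came from the Slc6a3 JD1640 TRAP line, in which a bacterial artificial chromosome carrying the dopamine transporter gene drives a GFP-tagged ribosomal protein, eGFP/RPL10A, and input RNA came from these transgenic mice too. The transgene was injected into fertilised FVB eggs, the mice descend from founders bred to C57BL6/j and are kept as trans-heterozygotes, and each sample was a pool of 5 mice of both sexes aged 6 to 12 weeks. The other fraction is labelled unbound (total) RNA and is described in the methods as a parallel input that stands for whole midbrain tissue, and it is termed input here.

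Serotonin is made from tryptophan by the enzyme that Tph2 encodes and is taken back up by the transporter that Slc6a4 encodes, and in the midbrain its cells lie in the raphe nuclei, close to the dopamine neurons. Noradrenaline is made from dopamine by the enzyme that Dbh encodes, chiefly in the locus coeruleus of the hindbrain. Acetylcholine is made by the Chat enzyme, in the midbrain in the motor neurons that move the eyes and, further back, in the tegmentum. Dopamine neurons share with serotonin and noradrenaline neurons the vesicular monoamine transporter Slc18a2 and the decarboxylase Ddc, whereas the 9 genes above are used to tell the other systems from them.

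Levels are given in arbitrary expression units, which are 2 raised to the deposited log2 values. A probe set was taken as above background where both arrays of at least 1 fraction reached 50 units, as 17073 did, while 59.5% of all probe sets lay under 50 units on all 4 arrays. On the single arrays 35.2% to 35.8% of probe sets were at or over 50 units, and the number of arrays limits the precision. All 16 dopamine neuron markers rose (median log2 fold change 5.07, against 0.44 over 10014 genes above background). Most of them are in the authors' table of enriched probe sets, which came from these same arrays. Their rise is thus no independent check of the labels. Foxa2, Pitx3, En1 and Aldh1a7 were under 50 units on both input arrays, so the median includes differences from values under background. GABAergic markers had a median of -1.15 over 8 genes, 7 of them below 0. Of the 8, 1 fell, beside 6.87% called lower over all genes above background. Nothing in the labels says how the pools were arranged beyond their replicate numbers, and p-values measure the spread between 2 pools of a fraction. By the methods each replicate also gave a parallel input, so the TRAP and input arrays numbered 2 may share mice. The fit treated all 4 arrays as independent. Fewer cells of a type and less RNA per cell cannot be told apart in such samples.

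Of the 13 probe sets, only that of Tph2 was above background, and it was neither higher nor lower in TRAP by limma. The count of probe sets called was thus 0 of 1 in each direction, beside 18.8% called higher and 9.13% called lower over all probe sets above background. Those shares stand for 3213 and 1559 probe sets, and the split was 2222 and 2038 after quantile normalization and 3745 and 3867 with arrays centred on bright probe sets, where Tph2 differed by 0.24 and 0.11 log2 units. Slc6a4 reached 50 units on 1 array of each fraction, and the other 11 probe sets stayed under 50 units on all 4 arrays. By this rule Tph2 alone was measurable, and no noradrenergic or cholinergic gene reached background in either fraction.

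**Figure D1:**
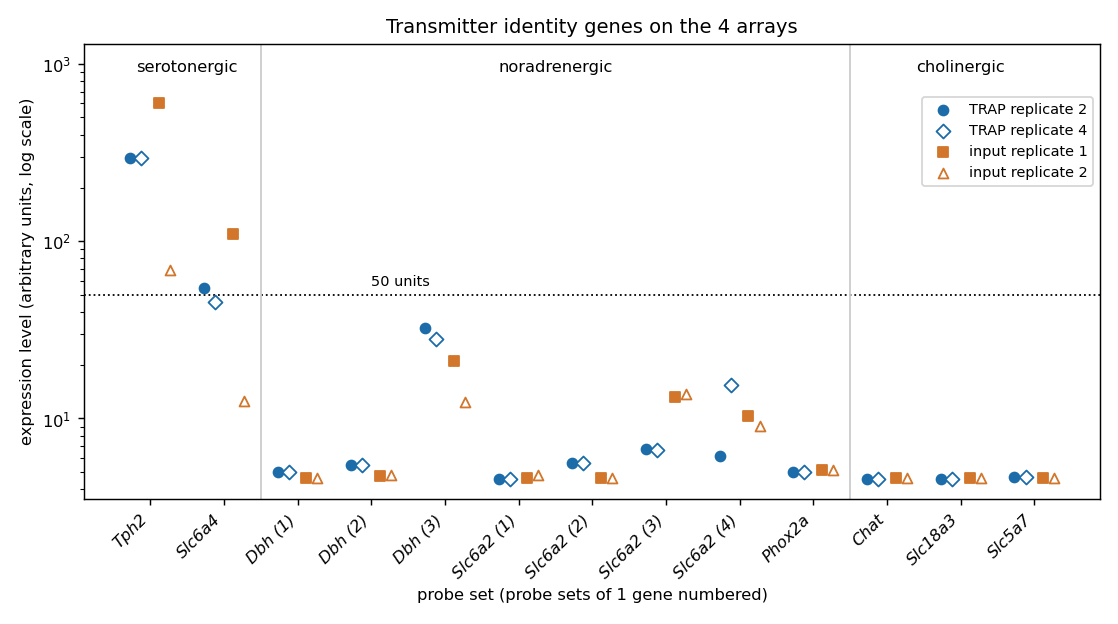
Levels of the 13 probe sets in arbitrary units, on a log axis, with the TRAP arrays as blue symbols left of the input arrays as orange symbols and the 50 unit background as a dotted line. For Tph2 and Slc6a4 both TRAP arrays lie between the 2 input arrays, and the 11 other probe sets lie at 32.2 units or less.

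Tph2 (probe set 1435314_at), the first enzyme of serotonin synthesis in the brain, had levels of 294 and 294 units in TRAP replicates 2 and 4, against 604 units on input replicate 1 and 69.3 on input replicate 2. Both TRAP arrays thus lay between the input arrays, and the fractions overlapped. The mean log2 level was 8.20 ± 0.00 in TRAP and 7.68 ± 2.21 in input (SD, n = 2 each), which is a difference of 0.52 log2 units (95% interval -4.97 to 6.02, standard error 1.45, adjusted p = 0.778 by limma). On the linear scale the order of the means was the other way, with 294 ± 0 units in TRAP and 337 ± 378 in input. The deposited values of Tph2 were identical on both TRAP arrays, as were those of 427 of the 15375 that reached 50 units in both TRAP samples (2.78%), so its spread of 0 in TRAP cannot be read as a precise measurement.

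Slc6a4 (1417150_at), the serotonin transporter, had levels of 54.2 and 45.4 units in TRAP replicates 2 and 4, against 111 units on input replicate 1 and 12.5 on input replicate 2. As for Tph2, both TRAP arrays lay between the input arrays. It differed by 0.41 log2 units (95% interval -5.13 to 5.96, standard error 1.47, adjusted p = 0.825 by limma), a value given as a description because neither fraction reached 50 units on both arrays.

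Both serotonin genes were higher on input replicate 1 than on input replicate 2. For Tph2 the factor was 8.72, or 3.12 log2 units. For Slc6a4 input replicate 2 was under background, and against 50 units the factor was at least 2.21, while the deposited values differed by 3.14 log2 units. Among the 16737 probe sets that reached 50 units in either input sample, 0.119% had a difference of that direction at least as large as that of Tph2, and their median difference was 0.00 (SD 0.74). The log2 value of Tph2 stood above that of Slc6a4 by 2.44 on TRAP replicate 2, 2.69 on TRAP replicate 4, 2.45 on input replicate 1 and 2.47 on input replicate 2. The offset includes the brightness of each probe set and is no ratio of transcripts, and 2 of the 4 Slc6a4 values behind it were under background.

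As these 2 members had the same order of arrays, their promoters are shown, from the RefSeq windows of GRCm38.p6. Each line gives the 250 bases before the gene start, with capitals marking GGAA or its reverse complement TTCC, the core bound by ETS factors, the family to which the Fev protein belongs.
Tph2, chr10:115185023-115185272, minus strand: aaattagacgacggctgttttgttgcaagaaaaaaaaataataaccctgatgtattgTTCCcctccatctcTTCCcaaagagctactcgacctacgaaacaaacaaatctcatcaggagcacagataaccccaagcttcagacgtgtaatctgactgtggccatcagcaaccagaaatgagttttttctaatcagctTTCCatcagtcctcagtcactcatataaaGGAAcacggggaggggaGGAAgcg
Slc6a4, chr11:76998347-76998596, plus strand: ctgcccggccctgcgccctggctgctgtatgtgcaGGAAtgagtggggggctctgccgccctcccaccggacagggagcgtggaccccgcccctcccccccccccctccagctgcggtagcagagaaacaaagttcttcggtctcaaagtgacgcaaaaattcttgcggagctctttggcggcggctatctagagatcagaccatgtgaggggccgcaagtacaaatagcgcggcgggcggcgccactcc
The core was found 5 times before Tph2 and 1 time before Slc6a4 on either strand, and 93.4% of 32851 such windows hold it, with a median of 3 matches. The longer ETS motif CCGGAAGT, which contains the core, was in neither window and is in 2.88% of all. TATAAA, searched on both strands, was found 1 time before Tph2 and 0 times before Slc6a4, and is in 12.4% of all windows. Such matches describe letters and not binding.

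Markers of other brain regions also differed between the input arrays, some in the direction of the serotonin genes and some in the opposite one. Gabra6, a receptor subunit of cerebellar granule cells, was at 104 and 132 units on the TRAP arrays, against 564 on input replicate 1 and 5.10 on input replicate 2. Slc6a5, the glycine transporter of hindbrain inhibitory neurons, was at 51.0 and 82.1 units on the TRAP arrays, against 134 on input replicate 1 and 5.26 on input replicate 2. On both genes the TRAP arrays lay between the input arrays, and input replicate 2 was near the lowest value of the array. Both were named after their values were seen, as the markers above background with the largest difference between the input arrays in their lists.

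Of 7 cerebellum markers above background, 6 were higher on input replicate 1 (median 2.53 log2 units). Among these 6, Zic1 differed by only 0.0016 log2 units, and the remaining marker, Cbln1, was at -0.16. Of 3 hindbrain markers 2 were higher on input replicate 1 (median 1.84) and 0 were lower. Of 10 thalamus and forebrain markers 8 were higher on input replicate 2 (median -1.87), and all 3 pituitary and choroid plexus markers were (median -3.75). Tcf7l2, a transcription factor of thalamic neurons, was at 96.6 and 30.7 units on the TRAP arrays, against 979 on input replicate 1 and 3460 on input replicate 2. Gh, the growth hormone of the pituitary, was at 81.6 and 224 units on the TRAP arrays, against 73.3 on input replicate 1 and 3799 on input replicate 2. These 4 lists were written, and the genes named from them chosen, after the values were seen. The part of such regional RNA in the serotonin values was not tested.

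**Figure D2:**
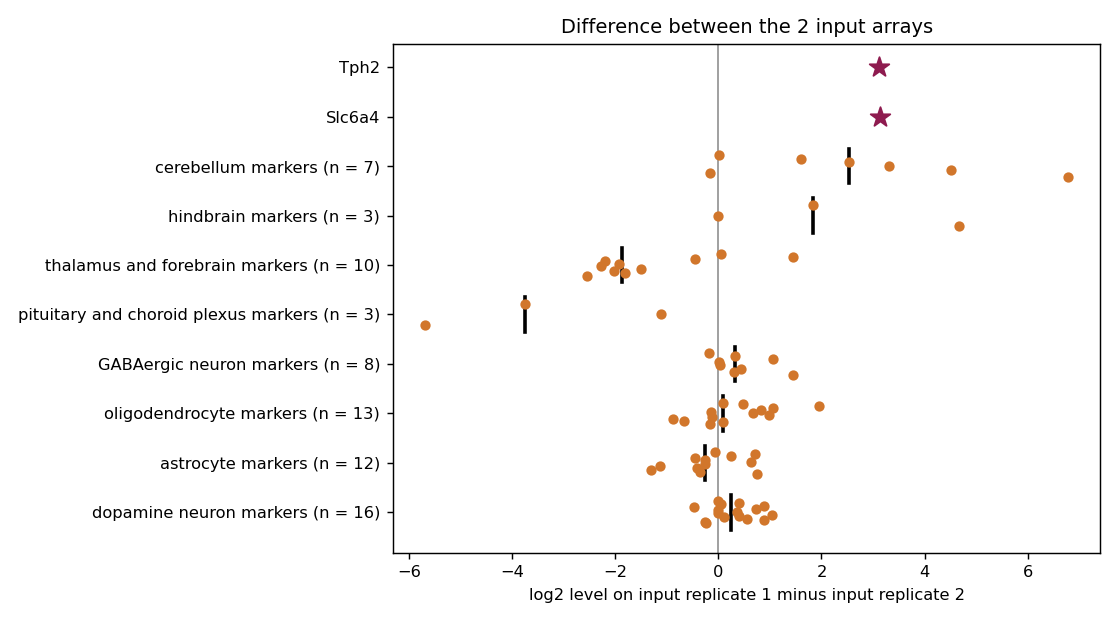
Log2 level on input replicate 1 minus input replicate 2 for Tph2 and Slc6a4 (stars) and for markers above background of regions and cell types (points), with each list's median as a black bar. The deposited values of Tph2 and Slc6a4 differ by 3.12 and 3.14, on the side of the cerebellum median of 2.53 and opposite the thalamus and forebrain median of -1.87. The Slc6a4 difference is a description only, since this gene was under background on input replicate 2.

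The summed level of the cerebellum markers was 6213 and 5029 units on the TRAP arrays, against 12419 and 11246 on input replicates 1 and 2, and on the input arrays most of it came from Zic1, a transcription factor of granule cells and other neurons. The summed level of the hindbrain markers was 234 and 168 units on the TRAP arrays, against 426 on input replicate 1 and 129 on input replicate 2. The TRAP arrays also differed from each other in markers of other cells. On TRAP replicate 2, 7 of 8 GABAergic markers were higher than on TRAP replicate 4 (median 1.44 log2 units), as were 12 of 13 oligodendrocyte markers (median 1.46). The identical Tph2 values and the dim Slc6a4 values allow no comparison with those markers.

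Whether the serotonin genes appeared higher or lower in TRAP depended on the input array. Against input replicate 1, Tph2 was lower by 1.04 log2 units on both TRAP arrays (2.05-fold), and Slc6a4 differed by -1.03 on TRAP replicate 2 and -1.28 on TRAP replicate 4. Against input replicate 2, Tph2 was 4.24-fold higher on both TRAP arrays, and the deposited values of Slc6a4 differed by 2.11 on TRAP replicate 2 and 1.86 on TRAP replicate 4. Those Slc6a4 values are a description only, since input replicate 2 and TRAP replicate 4 were under 50 units. GABAergic medians for TRAP replicates 2 and 4 were -0.83 and -2.36 against input replicate 1 and -0.09 and -1.96 against input replicate 2. For TRAP replicate 2 against input replicate 2, 4 of 8 GABAergic markers were above 0, and in the other pairs 1 or 2 were. Cerebellum medians for TRAP replicates 2 and 4 were -0.55 and -0.41 against input replicate 1 and 3.97 and 3.86 against input replicate 2. The medians against input replicate 2 rest in part on values under background. There Gabra6, Cbln3 and Pcp2 were at 5.10, 7.25 and 11.8 units. Of the 7 cerebellum markers, however, only Gabra6 and Cbln3 changed sign with the input array. On each TRAP array 2 of the 7 lay above input replicate 1 and 4 above input replicate 2. Dopamine neuron markers had medians of 4.51 to 5.65 over the same 4 pairs of arrays.

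**Figure D3:**
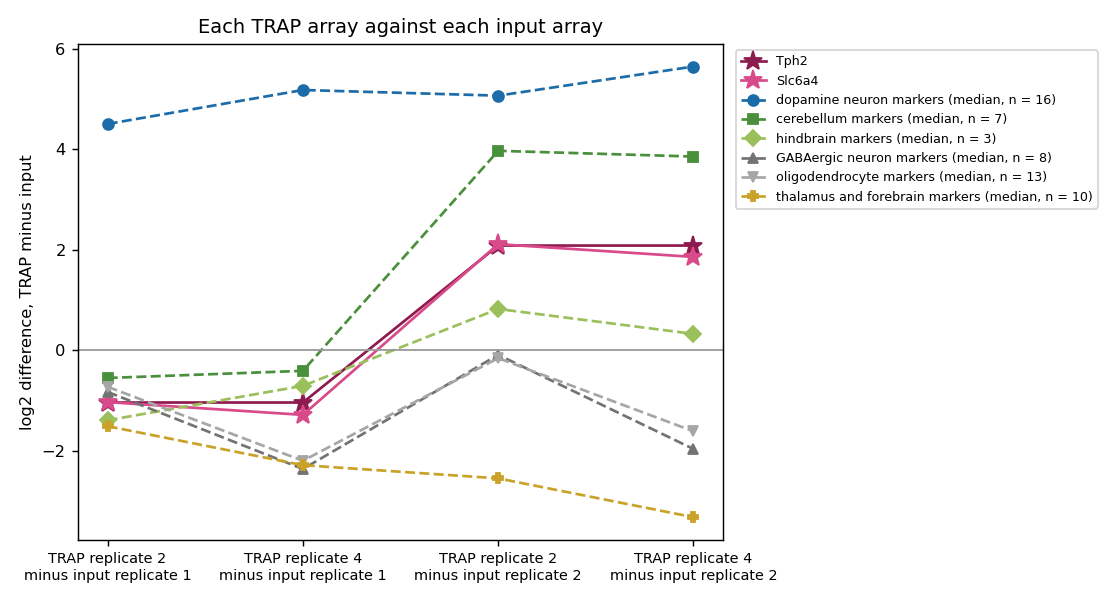
Log2 difference of each TRAP array from each input array for Tph2 and Slc6a4 (stars, solid lines) and as the median of marker lists (dashed lines). The deposited values of both serotonin genes lie below 0 against input replicate 1 and above 0 against input replicate 2, while the dopamine neuron medians stay between 4.51 and 5.65.

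Set beside its dopamine counterpart, Tph2 had a smaller estimated fold change. Th, which like Tph2 encodes an amino acid hydroxylase that starts the synthesis of its transmitter, was higher in TRAP by 5.72 log2 units (adjusted p = 0.00213 by limma), and the Tph2 difference minus that of Th was -5.19, ranging from -6.88 to -3.51 with 1 array left out. An exact 2-sided permutation test over the 4 arrays gave p = 0.333 (0.333 after Benjamini-Hochberg adjustment over 4 pairs computed), which is the smallest p that 2 against 2 arrays allow. The other pairs, Slc6a4 and Slc6a2 with Slc6a3 and Dbh with Th, had a member not above background, and no difference between their fold changes is given. Slc6a3, the dopamine transporter and a relative of Slc6a4, was itself higher by 2.89 log2 units (adjusted p = 0.0040 by limma), a call lost without TRAP replicate 2 or TRAP replicate 4 (adjusted p up to 0.0636 by limma). It stood at 37882 and 41149 units on the TRAP arrays, whose highest values were 54823 and 54801 and where 23 and 12 probe sets were brighter, against 4856 and 5824 on input replicates 1 and 2, and saturation of its probes was not tested. The genes whose 4 centred log2 values were nearest to those of Tph2 among 10013 others above background were Paip1, Stxbp3 and Fgfr1op2, at Euclidean distances of 0.46, 0.62 and 0.69 log2 units over 4 arrays.

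The noradrenergic genes were measured by 8 probe sets and none reached 50 units. Dbh, which turns dopamine into noradrenaline, had 3 probe sets, and the brightest (1459848_x_at) was at 32.2 and 28.1 units on the TRAP arrays, against 21.0 and 12.4 units on input replicates 1 and 2. Both TRAP arrays lay above both input arrays on this probe set, but all 4 values were under background and its suffix marks probes that can match other transcripts. The other Dbh probe sets were near the bottom of the range, with 1450670_at at 5.46 units on both TRAP arrays against 4.73 and 4.77 on input replicates 1 and 2.

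Slc6a2, the noradrenaline transporter, had 4 probe sets, which ranged from 4.58 to 15.4 units and did not order the fractions the same way. Probe set 1447311_at was at 6.72 and 6.64 units on the TRAP arrays, against 13.3 and 13.7 units on input replicates 1 and 2. Probe set 1442449_at was at 5.64 units on both TRAP arrays, against 4.59 on both input arrays. Phox2a, a homeobox factor of noradrenergic cells and of the eye motor nuclei, was at 4.97 units on both TRAP arrays, against 5.10 on both input arrays. At these levels, where offsets of the floor also pass the test, no difference between TRAP and input was called for any of the 3 genes.

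The cholinergic genes lay at or near the lowest value of the arrays. Chat, the acetylcholine-forming enzyme, was at 4.58 units on both TRAP arrays, against 4.59 on both input arrays, and the lowest value of any probe set was 4.58 in TRAP and 4.59 in input. Slc18a3, the vesicular acetylcholine transporter, whose gene lies inside the Chat gene in the RefSeq annotation, had the same values as Chat. Slc5a7, which takes up choline for acetylcholine synthesis, was at 4.66 units on both TRAP arrays, against 4.63 on both input arrays. Input lay at the floor as well as TRAP, so the probe sets did not register these genes in whole midbrain either, and the values say nothing on enrichment or depletion.

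Without the background rule, limma's adjusted p passed 0.05 for 6 of the 13 probe sets (also 6 at an unadjusted p under 0.05), 4 of them higher and 2 lower, all under 50 units on every array. This stood beside 45.1% of all probe sets passing in either direction, 19.0% higher and 26.1% lower, and 55.5% of those not above background. Of the 6, 3 had the same value on both arrays of each fraction. These differences under background were not counted as changes. Slc6a2 probe set 1447311_at had the largest, at -1.01 log2 units.

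Other genes of the 3 pathways were taken from lists that included genes shared with dopamine neurons. Of 59 genes, 44 were measured and 25 lay above background, of which 9 rose and 3 fell, beside 18.7% higher and 6.87% lower over all genes above background, and their median log2 fold change was 0.03, against 0.44 over all those genes. With arrays centred on bright probe sets 11 rose and 8 fell. The genes that rose included enzymes and carriers that all monoamine neurons use.

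In the serotonin list 6 of 15 genes above background rose and 1 fell, with a median of 0.03. Gch1, which makes the cofactor of both Tph2 and Th, was at 2564 and 4584 units on the TRAP arrays, against 95.8 and 61.6 on input replicates 1 and 2 (5.48 log2 units higher, adjusted p = 0.0140 by limma). Slc18a2 rose by 5.24, Ddc by 3.49, Lmx1b, a homeobox factor of dopamine and serotonin neurons, by 3.75, and Insm1, a zinc finger factor of neuron progenitors, by 2.96 log2 units. All but Insm1 are also markers or enzymes of dopamine neurons. The member that fell was Htr1a, the autoreceptor of serotonin neurons, at 12.0 units on both TRAP arrays, against 54.9 and 61.6 on input replicates 1 and 2, which makes it at least 1.16-fold lower. Its deposited values differed by -2.27 log2 units (adjusted p = 0.00221 by limma). With values under 50 units raised to 50 the adjusted p was 0.408 by limma. Htr1a was named after its values were seen, as was the remaining gene that rose, Maoa, a monoamine-degrading enzyme, with a log2 fold change of 1.98. The other 8 genes did not pass, among them En2, a homeobox factor of the midbrain and anterior hindbrain, at 1729 and 2285 units on the TRAP arrays, against 289 and 100 on input replicates 1 and 2 (adjusted p = 0.0623 by limma), and Gata3, a GATA factor of serotonin and GABAergic neurons, at 21.0 and 8.87 units on the TRAP arrays, against 141 and 59.4 on input replicates 1 and 2 (adjusted p = 0.0972 by limma). En2 and Gata3 were chosen after their values were seen, as the uncalled genes with the largest differences in each direction.

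In the noradrenaline list 2 of 5 genes rose and 0 fell, with a median of 0.35. These were Th and Cyb561, a cytochrome that passes electrons for vitamin C in secretory vesicles, where the Dbh enzyme uses it. Cyb561 was at 5265 and 7514 units on the TRAP arrays, against 1934 and 1631 on input replicates 1 and 2, with all TRAP values above all input values (1.82 log2 units higher, adjusted p = 0.0338 by limma). Pnmt, which turns noradrenaline into adrenaline, was at 105 and 94.7 units on the TRAP arrays, against 77.6 and 79.0 on input replicates 1 and 2 and did not pass (0.35, adjusted p = 0.0564 by limma). Slc29a4, a low-affinity monoamine transporter, differed by -0.18 log2 units and did not pass. Gal, the neuropeptide galanin of locus coeruleus and other cells, was at 61.5 and 43.5 units on the TRAP arrays, against 102 and 105 on input replicates 1 and 2, and did not pass either (adjusted p = 0.0754 by limma).

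In the acetylcholine list 1 of 5 genes rose and 2 fell, with a median of -0.73. Prima1, which anchors acetylcholinesterase in neuronal membranes, was at 1879 and 2459 units on the TRAP arrays, against 434 and 333 on input replicates 1 and 2 (2.50 log2 units higher, adjusted p = 0.0176 by limma). Ache, the cholinesterase itself, was at 790 and 1298 units on the TRAP arrays, against 165 and 250 on input replicates 1 and 2, and did not pass (2.32, adjusted p = 0.0528 by limma). Chodl, a lectin of some motor neurons, was lower by a factor of at least 2.16, with 17.6 and 21.5 units on the TRAP arrays, against 123 and 94.8 on input replicates 1 and 2. Its deposited values differed by -2.48 log2 units (adjusted p = 0.0141 by limma). With values under 50 units raised to 50 the adjusted p was 0.145 by limma. Slc44a1, a choline transporter of many cells, fell by 0.73 log2 units (adjusted p = 0.00862 by limma). Isl1, a homeobox factor of motor and other neurons, was at 66.3 and 14.2 units on the TRAP arrays, against 330 and 606 on input replicates 1 and 2, and did not pass (-3.87, adjusted p = 0.0914 by limma). Neither Ache nor Prima1 is confined to cells that release acetylcholine.

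Of the 12 pathway genes that passed, only Th kept its call without any 1 of the 4 arrays, and 7 lost it whichever array was left out. In turn Ache passed in 3 alternatives, Gal in 4, Isl1 in 2 and Pnmt in 1. All called genes but Th also lost the call with values under 50 units raised to 50, a setting that gives 26819 probe sets the same value on all arrays.

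**Figure D4:**
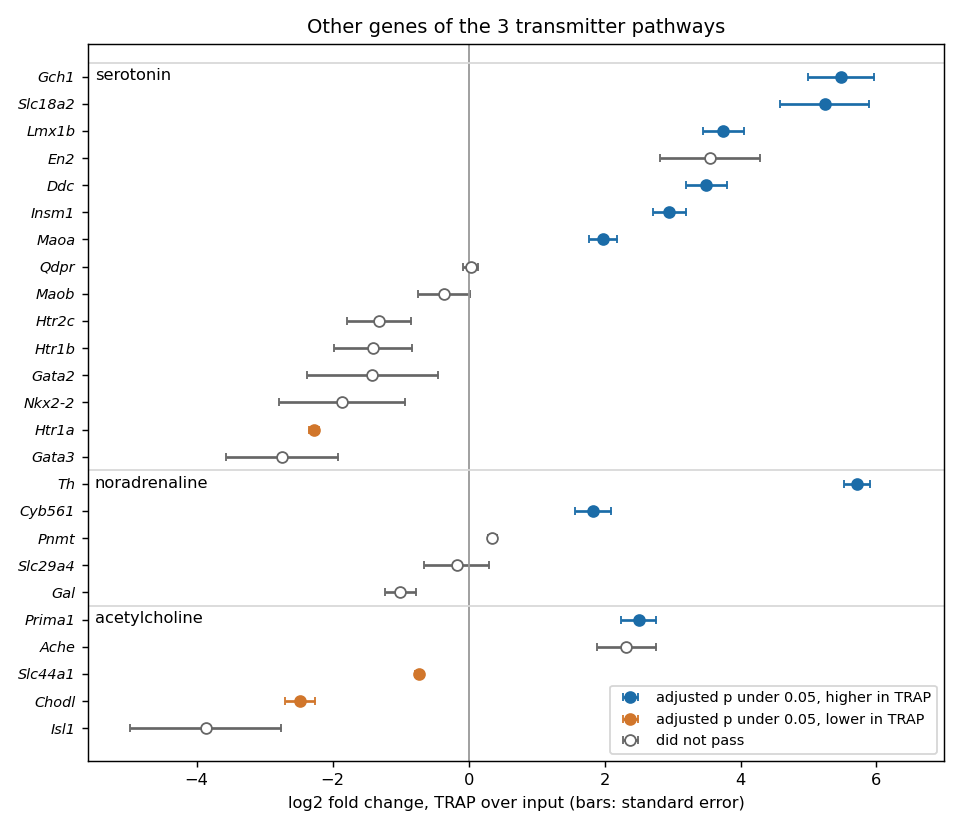
Log2 fold change of TRAP over input, with standard error, for the 25 other genes of the serotonin, noradrenaline and acetylcholine pathways above background. Filled points passed an adjusted p of 0.05, blue for the 9 higher in TRAP and orange for the 3 lower, with Th at 5.72 and Isl1 at -3.87 as the extremes.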

How the data were processed

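RNA of TRAP and input fractions of midbrain was amplified by a two-cycle protocol and hybridized to Affymetrix mouse arrays. The authors processed the arrays with GCRMA in R (version not given in the sources used here), and deposited 1 value per probe set and array, on a log2 scale. GCRMA corrects background by probe sequence and pulls dim probe sets to a common floor, so levels there carry little information. The lowest value differed between the fractions (4.58 units in TRAP and 4.59 in input) and was the same on the arrays of each fraction. No further normalization was applied.

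The 64 control probe sets among the 45101 were removed. The platform annotation gives 34945 of the rest 1 gene symbol, 932 several and 9160 none, and 34741 matched a RefSeq gene by identifier with 0 symbols changed. In lists a gene was represented by its brightest probe set (mean log2 of all samples). TRAP was compared with input by limma 3.58.1 in R 4.3.3 (1 coefficient for the fraction, empirical Bayes, 2-sided), with Benjamini-Hochberg adjustment over 45037 probe sets, and a call needed an adjusted p under 0.05 and 50 units on both arrays of a fraction. Where both samples of a fraction were under 50 units, that fraction was set to 50 and the fold written as a minimum. Of all probe sets, 15551 had identical values within both fractions, and these enter limma's estimate of the spread, whose prior had 0.317 degrees of freedom. Of the probe sets not above background 55.5% passed, and they share the adjustment. The adjusted p is therefore no rate of false calls among probe sets above background alone. The fit was tested on simulated data and returned the simulated fold changes, which checks its estimates and not its p-values or calls.

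The members, lists and tests were chosen with earlier results of these data known, and the regional lists after their values were seen. Named genes were all members, dopamine counterparts and the 3 genes nearest to Tph2. From each pathway list up to 5 genes were named (those called with the largest change, then the brightest). The 4 serotonin genes named outside these rules are marked in the text. The regional markers named also lay outside them and were chosen after their values were seen. The other cell type lists gave 1 of 3 glutamatergic, 1 of 13 oligodendrocyte, 2 of 12 astrocyte and 2 of 6 microglia and vessel markers lower and 0 higher. Fold changes were below 0 for 3 of 3, 12 of 13, 12 of 12 and 6 of 6 of these, in the same order. Of the regional lists, 1 of 7 cerebellum and 1 of 10 thalamus and forebrain markers fell and 0 of these lists' genes rose. Over all genes above background 6.87% were called lower and 18.7% higher. Alternatives were other normalizations, fits, floors, backgrounds and thresholds, and each array left out in turn.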

Additional observations from a re-analysis of the deposited data

How the results depend on the processing

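No paired analysis was possible because the fractions share only replicate number 2. With 1 array left out, the Tph2 log2 fold change ranged from -1.04 (without input replicate 2, adjusted p = 3.49e-05 from limma) to 2.09 (without input replicate 1, adjusted p = 3.43e-05), so that 0 to 1 members were called in each direction. These 2 fits rest on identical TRAP values and a lone input array assumed to vary like TRAP. For Slc6a4 the range was -1.16 to 1.99, and it was -0.52 with values under 50 units raised to 50. Against input replicate 1 alone Tph2 was at -1.04, and Slc6a4 at -1.03 and -1.28. Without the background rule 4 members were called higher and 2 lower, all under 50 units. The pathway genes called higher numbered 2 to 4 with an array left out, 1 with values raised to 50 and 1 at an adjusted p under 0.01. Those called lower numbered 1 with each array left out, 8 after centring on bright probe sets, 0 with values raised to 50, 1 at a background of 100 units and 9 without a background rule. With 1 array left out Slc29a4 ranged from -0.64 to 0.29, above 0 without TRAP replicate 4 or input replicate 2, and Pnmt was at -0.063 after centring. Over all probe sets above background, 3213 higher and 1559 lower calls became 824 and 467 with values raised to 50 (a fit in which over 50% of spreads were 0, so that limma called its prior unreliable), 944 and 632 at an adjusted p under 0.01, 1434 and 926 without TRAP replicate 2, 1340 and 842 without TRAP replicate 4, and 8539 and 11760 without a background rule. Lower calls alone became 3867 after centring and 1006 at 100 units. The causes were not tested beyond what the settings construct. The Tph2 difference minus that of Th kept its sign after quantile normalization (-5.06) and with each array left out (-6.88 to -3.51). The other settings run left it at -5.19, as they cannot alter a difference between 2 probe sets above background on the same arrays. Among genes not called, Gal passed with centring (adjusted p = 0.0209), an intensity trend (0.0464), without TRAP replicate 2 (0.0217) or TRAP replicate 4 (0.0367), Ache with centring, an intensity trend or only probe sets above background fitted (0.0214 to 0.0267), Isl1 with centring (0.0249) or only probe sets above background fitted (0.0377), and Pnmt without TRAP replicate 4 (0.0416), all by limma. Slc6a4 was not in the fit of probe sets above background, and no alternatives were run for single folds of the 11 dim probe sets.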
